A study of Homo sapiens with 17 samples.

Results

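The GATA factors examined here are 5 zinc finger transcription factor genes, *GATA2*, *GATA3*, *GATA4*, *GATA5* and *GATA6*, in human pluripotent stem cells (PSCs) of the naive and the primed state. They were taken as a family by gene name, and their regulatory contacts were read from 2 lists of promoter interactions, 1 for each cell type, in which 15982 restriction fragments carried a capture bait. The lists hold a strand sign in the name column and no gene names, so each gene was placed on the *Hin*dIII fragments that overlap an annotated transcript start or the 1000 bp upstream of it. By this match the 5 genes had 11 promoter fragments, of which 6 were in the lists and 3 were baited: 1 each for *GATA3*, *GATA5* and *GATA6*. *GATA2* and *GATA4* appeared only as partners of other genes' baits, through 3 fragments that the lists show without a bait. The fragments that hold their main start sites were not in the lists, which name only fragments with an interaction. Whether those fragments were baited in the capture is therefore not known.

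GATA factors bind DNA words with GATA at their core through paired zinc fingers and act with cofactors of the FOG, LMO and TAL1 groups. *GATA2* and *GATA3* are regulators of the trophoblast, the lineage that forms the placenta, while *GATA4* and *GATA6* drive the primitive and definitive endoderm and the heart, where *GATA5* also acts. In undifferentiated PSCs these lineage genes are mostly silent or expressed at a low level. H3K4me1, methylation of histone H3 at lysine 4, marks enhancers and the flanks of promoters, both active and poised.

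All samples came from one human embryonic stem cell line, WA09/H9 NK2, so that naive and primed cells share 1 genetic background. Naive PSCs were grown in t2iL+PKCi conditions (the inhibitors PD0325901, CHIR99021 and Go6983 with LIF) on Matrigel, and primed PSCs in TeSR-E8 on Vitronectin. Promoter Capture Hi-C (PCHi-C), which enriches ligation products of promoter fragments, gave 1 list per cell type with 79330 naive and 88985 primed interactions, each scored by CHiCAGO at 5 or above after replicates were combined. CUT&RUN profiles of H3K4me1 came from 2 naive and 3 primed libraries, and there was 1 Hi-C library per cell type. Growth medium and cell type cannot be told apart in this design, and because the labels do not say that the H3K4me1 replicates were separate cultures, p-values measure only the spread between these libraries.

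The H3K4me1 libraries held between 6.74 and 26.6 M reads. An empty 500 bp tile was entered as 0.9 reads, so its log2 RPM, the log2 of reads scaled to the library total, ranged from -4.89 to -2.91 with the depth of the library. Over tested fragments the naive pair correlated at 0.90 and the primed libraries at 0.78 to 0.93, with primed replicate 2 the least like the others. Of the marker genes used as a check, *DPPA5* and *DPPA3* bait fragments, 2 of 3 tested for naive PSCs, had higher H3K4me1 in naive cells. *DUSP6* and *FGF2*, 2 of 4 tested for primed PSCs, had higher H3K4me1 in primed cells, and no marker was called against its label. Over all tested fragments 32.9% were called higher in naive and 21.5% higher in primed PSCs. The start fragments of the called markers averaged above 0 only in the cell type of their label. A fragment was tested with a mean above 0 in 2 libraries, so this filter favoured the labelled direction, and the check is weak. Across all 7781 fragments tested the median primed minus naive difference was -0.29 on the log2 scale, and -0.02 after each library was centred on its median, so differences below are to be read against that shift.

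The 5 genes together had 7 interactions in the naive list and 23 in the primed list, of which 4 were in both, and none joined different chromosomes. These interactions reached 26 partner fragments, 8 of them baited. Among the 3 GATA baits, *GATA3* and *GATA6* had more interactions in primed PSCs and *GATA5* had more in naive PSCs. Over all baits of either list 42.7% had more interactions in primed PSCs and 45.1% had more in naive PSCs, so the direction by itself did not set the GATA baits apart. The median bait had 3 interactions in each list. The lists combine replicates, so no interaction has a replicate check.

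**Figure D1:**
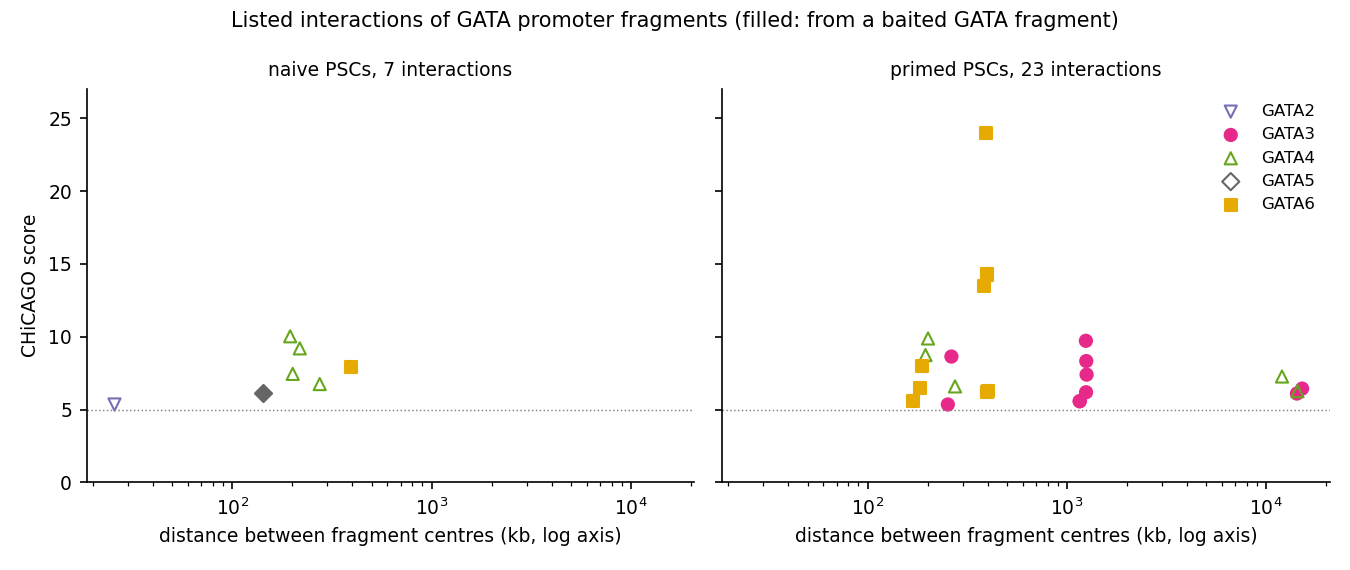
CHiCAGO score of every listed interaction of a GATA promoter fragment against the distance between fragment centres (kb, log axis), naive PSCs on the left and primed PSCs on the right, with filled symbols for interactions from a baited GATA fragment and the dotted line at the score of 5 that admits an interaction. All 7 naive interactions lie within 392.48 kb, whereas the primed panel adds *GATA3* contacts at 1.16 to 1.26 Mb, *GATA3* and *GATA4* contacts over 10 Mb away, and the *GATA6* contacts with the highest scores.

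*GATA3*, a driver of trophoblast and of T cell fate, had no listed interaction in naive PSCs and 10 in primed PSCs. Its bait fragment, chr10:8039719-8061242 in GRCh38, is 21524 bp long, carries the main start site at 8054688 on the plus strand and also holds the promoters of the antisense gene *GATA3-AS1* and of ENSG00000232638. A bait listed in primed cells alone was found for 12.0% of all baits. No partner of *GATA3* carried a bait, and 8 of the 10 lay over 1 Mb away, a range that 9.73% of all baits reached in the primed list.

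The *GATA3* partners fell into runs. The nearest run, 2 fragments at 253 and 264 kb downstream between chr10:8302082 and 8321337, had 27 and 38 combined reads and scores of 5.35 and 8.64. The next run held 6 fragments from 9209192 to 9310750, 1.16 to 1.26 Mb away, with 9 to 12 reads each and scores of 5.57 to 9.72, and its last fragment carries the promoter of the unnamed gene ENSG00000287120. *GATA3* was the nearest protein-coding start to every fragment of both runs. The remaining partners lay much farther along the chromosome. The fragment at 22324760 to 22328026, 14.3 Mb away, holds the start of *BMI1*, a Polycomb subunit gene, and the 166 bp fragment at 23205251, 15.2 Mb away, lies 11.9 kb from the start of *PTF1A*, a pancreatic and neural regulator. Each of these rested on 4 combined reads, with scores of 6.10 and 6.44. A primed interaction over 10 Mb was listed for 0.957% of all baits.

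H3K4me1 over the *GATA3* bait fragment was higher in every primed library than in either naive library. The fragment entered the test, which asked for a mean above 0 in 2 libraries, through its primed libraries alone. The mean log2 RPM of its tiles was -1.06 and -0.83 in the naive libraries, and 0.86, 0.29 and 0.50 in the primed libraries, so the groups did not overlap. The difference was 1.50 ± 0.32 (SE) on the log2 scale, past the threshold in limma with an adjusted p of 0.0041, against 21.5% of all tested fragments that were called higher in primed PSCs. Without naive replicate 1 the difference was 1.38 and its adjusted p 0.055, and in the other 10 alternatives the call remained.

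The called tiles lay on both sides of the start site. Of 44 tiles touching the bait fragment 39 were tested, and 23 were called higher in primed PSCs and 0 higher in naive PSCs, where 26.0% and 26.1% of all tested tiles were called in these directions. Over the gene itself, 31 of 44 tested tiles were higher in primed cells. A tile entered the test with a value above 0 in any 2 libraries, so these counts describe the fragments and are no separate test. Tiles called higher in primed PSCs were centred from 11.44 to 5.94 kb upstream and from 1.06 to 6.56 kb downstream of the start, and none of the tested tiles from 5.44 kb upstream to 0.56 kb downstream was called.

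The stretch of *GATA3* printed here is the middle of the intronic tile with the smallest adjusted p in the bait fragment, free of annotated exons. It lies 3.06 kb inside the gene at chr10:8057601-8057900 (GRCh38, plus strand), and capitals mark, on either strand, the word AGATAA or its variants TGATAA (with T first), AGATAG (with G last) or TGATAG (with both). Its tile measured -2.45 and -1.75 log2 RPM in naive and 1.76, 1.27 and 1.62 in primed libraries. It held 1 such word in 300 bases, and 41.9% of equally long windows from all tested tiles held at least 1.
GATA3 intron tile: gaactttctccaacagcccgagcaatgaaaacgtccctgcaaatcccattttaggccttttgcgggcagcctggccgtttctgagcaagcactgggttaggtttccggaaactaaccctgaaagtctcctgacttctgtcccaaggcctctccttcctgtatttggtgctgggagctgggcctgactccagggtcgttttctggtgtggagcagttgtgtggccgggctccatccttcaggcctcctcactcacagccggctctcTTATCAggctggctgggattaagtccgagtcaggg

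Of the *GATA3* partners only the nearest fragment and the 1 near *PTF1A* had more H3K4me1 in primed cells by the fit without the filter on low values. No *GATA3* partner passed the filter of a mean above 0 in 2 libraries. The fragment at 8302082 to 8304764 measured -2.14 and -2.61 in naive and -0.58, -1.33 and -0.89 in primed libraries, a difference of 1.44 ± 0.36 (SE; limma adjusted p = 0.0016 without the filter, where 9.81% of 88413 fragments were called higher in primed PSCs). The 166 bp fragment is touched by 1 tile, which was empty in the naive libraries and held 6, 4 and 12 reads in the primed libraries. At the 6 fragments around 1.2 Mb the summed tile reads stayed between 2 and 58 per library, and no fragment was called even without the filter. Of the 6 tiles tested in *GATA3* partners, 2 in the nearest fragment and 1 in this run (2.86, limma adjusted p = 0.0076) were higher in primed PSCs. In the *BMI1* fragment 1 tile was higher in naive PSCs (-1.50, limma adjusted p = 0.031). Over all tested tiles 26.0% were called higher in primed and 26.1% higher in naive PSCs.
The tile printed from the nearest partner, chr10:8302601-8302900 on the plus strand, lies outside any protein-coding gene and holds none of the 4 words on either strand. It measured -1.12 and -2.75 log2 RPM in naive libraries and 0.76, 0.34 and 0.44 in primed libraries.
GATA3 partner tile: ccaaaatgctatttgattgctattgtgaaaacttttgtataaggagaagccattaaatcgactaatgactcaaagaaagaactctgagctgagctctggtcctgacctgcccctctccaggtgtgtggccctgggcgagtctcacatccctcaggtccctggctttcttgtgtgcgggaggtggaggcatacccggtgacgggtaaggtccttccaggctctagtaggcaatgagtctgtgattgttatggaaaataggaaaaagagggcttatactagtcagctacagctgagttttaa

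**Figure D2:**
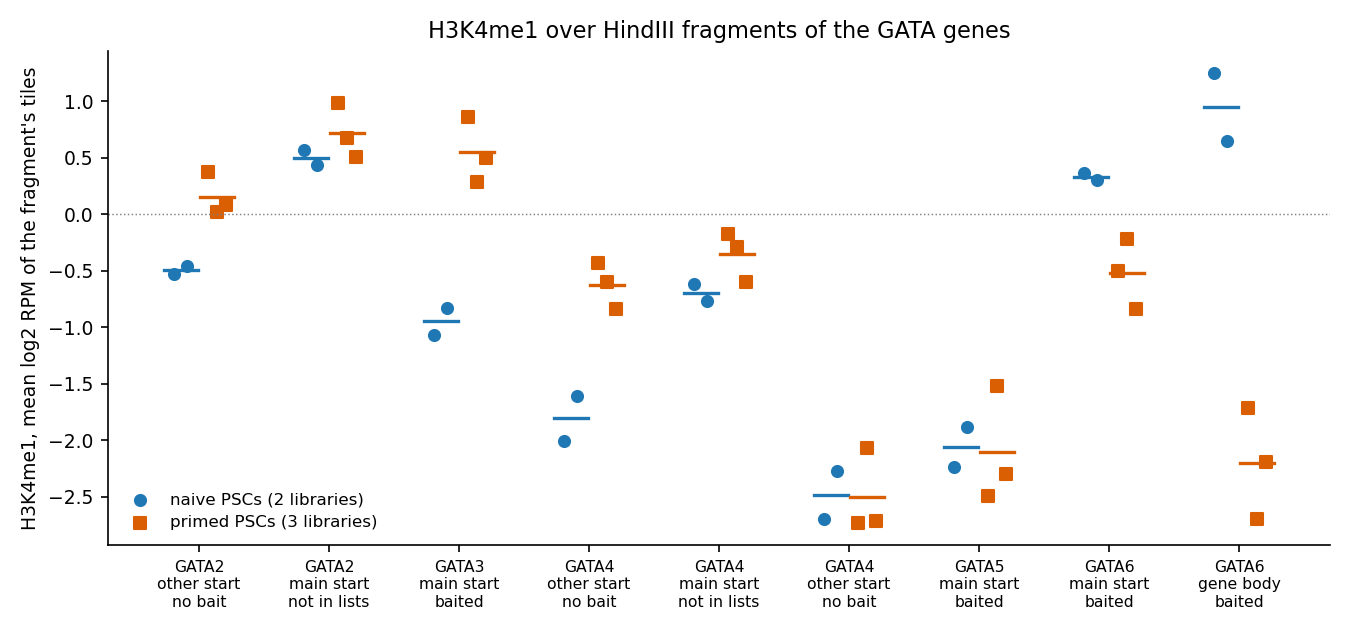
Mean log2 RPM of H3K4me1 over the tiles of each GATA fragment in the 2 naive (circles) and 3 primed (squares) libraries, with bars at the group means and labels giving the start site and bait status of each fragment. The *GATA3* fragment is higher in all primed libraries (0.29 to 0.86) than in the naive libraries (-1.06 and -0.83), and the *GATA6* fragments are higher in the naive libraries.

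*GATA6*, required for the primitive endoderm, had more listed interactions in primed PSCs, while the tiles called over its gene had more H3K4me1 in naive PSCs. Its bait fragment, chr18:22165257-22174156 (8900 bp), holds the main start at 22169589 on the plus strand and the promoter of *GATA6-AS1*. It had 1 interaction in naive and 8 in primed PSCs. A gain of at least 7 interactions was seen in 10.2% of all baits, and 25.0% of baits had 8 or more primed interactions.

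All *GATA6* contacts lay downstream within 402 kb, none of them at a baited fragment. A run of 3 fragments from 22328648 to 22358373, 170 to 187 kb away, had 22 to 31 reads and scores of 5.60 to 7.98. A run of 5 fragments from 22545945 to 22573778, 384 to 402 kb away, had 13 to 38 reads and scores of 6.23 to 23.99. The contact listed in both cell types was the fragment at 22560736 to 22563642, which carries the promoter of the unnamed gene ENSG00000289624. Its score was 7.90 with 22 reads in naive PSCs and 23.99 with 38 reads in primed PSCs. With ends within 10 kb counted as shared, 5 of the 8 primed interactions had a naive counterpart, all of them in the far run beside the naive contact, while the near run had none.

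H3K4me1 over the *GATA6* bait fragment was 0.36 and 0.30 log2 RPM in the naive libraries and -0.51, -0.22 and -0.84 in the primed libraries. Every primed library was below both naive libraries, yet the difference of -0.85 ± 0.33 (SE) missed the threshold (limma adjusted p = 0.052). It passed without primed replicate 2 (-1.003, adjusted p = 0.012) and in none of the other 10 alternatives.

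Further into the *GATA6* gene more tiles were called. Of 32 tiles tested over the gene span, 25 were called higher in naive PSCs and 0 higher in primed PSCs. Over all tested tiles 26.1% and 26.0% were called in these directions. A tile entered the test with a value above 0 in any 2 libraries, which the naive libraries alone could meet. These counts therefore describe the gene and are no separate test. The called tiles of the bait fragment lay 1.84 kb upstream of the start and 3.66 to 4.66 kb downstream of it. Another baited fragment inside the gene, chr18:22178381-22180287, holds the promoter of the small RNA gene *RNU6-702P*. It measured 1.25 and 0.64 log2 RPM in naive and -1.71, -2.69 and -2.19 in primed libraries, and entered the test through the naive libraries alone. There the mark fell by 3.14 ± 0.38 (SE) on the log2 scale (limma adjusted p = 2.3e-04), with 32.9% of all tested fragments called higher in naive PSCs, and the call remained in all 11 alternatives.

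The bait inside the gene was also the bait most like *GATA6* by its contacts. It shared all 8 partners of the *GATA6* promoter bait out of 10 of its own, a shared part of 0.80 of the union. It had 1 naive and 10 primed interactions, with the fragment at 22560736 again the highest, at a score of 6.67 with 17 reads in naive and 22.15 with 50 reads in primed PSCs. The baits lie 9.63 kb apart in 1 locus and are not replicates of each other.

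The windows printed for *GATA6* were chosen like that of *GATA3*, and both had more H3K4me1 in naive cells. The first lies within the bait in the gene body, 10.2 kb past the start at chr18:22179601-22179900, with 1.26 and 0.71 log2 RPM in naive and -2.15, -2.98 and -2.73 in primed libraries. The other is in the far run of partners at chr18:22546101-22546400, with 1.72 and 1.77 in naive and 0.02, -0.66 and 0.07 in primed libraries. Both are plus strand of GRCh38, with capitals as above.
GATA6 gene-body bait tile: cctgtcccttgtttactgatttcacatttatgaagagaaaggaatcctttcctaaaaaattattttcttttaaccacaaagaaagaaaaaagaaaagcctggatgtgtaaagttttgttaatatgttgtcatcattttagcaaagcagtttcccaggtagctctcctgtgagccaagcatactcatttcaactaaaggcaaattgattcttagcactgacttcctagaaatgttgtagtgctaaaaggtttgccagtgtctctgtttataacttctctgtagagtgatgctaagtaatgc
GATA6 partner tile: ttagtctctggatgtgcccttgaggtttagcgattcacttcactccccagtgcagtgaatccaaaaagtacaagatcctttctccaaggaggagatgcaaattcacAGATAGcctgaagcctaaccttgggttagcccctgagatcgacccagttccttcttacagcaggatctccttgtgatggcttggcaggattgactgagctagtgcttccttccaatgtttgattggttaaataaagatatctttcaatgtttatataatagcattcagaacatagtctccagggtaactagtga

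None of the *GATA6* partners was called without the filter, and none passed it. The largest H3K4me1 level among them was at the fragment from 22545945 to 22560735, with -0.39 in both naive libraries and -1.23, -1.23 and -1.25 in the primed libraries, a difference of -0.85 ± 0.36 (SE; limma adjusted p = 0.077 without the filter). Of 23 partner tiles tested, 1 in the near run, 161.16 kb past the *GATA6* start, was called higher in primed PSCs. The 5 partner tiles called higher in naive PSCs adjoin each other at the near end of the fragment from 22545945. They lie 376.16 to 378.16 kb past the *GATA6* start. Called tiles made up 4.3% (higher in primed) and 21.7% (higher in naive) of the tested partner tiles. Over all tested tiles the shares were 26.0% and 26.1%, so neither count is above the background.

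**Figure D3:**
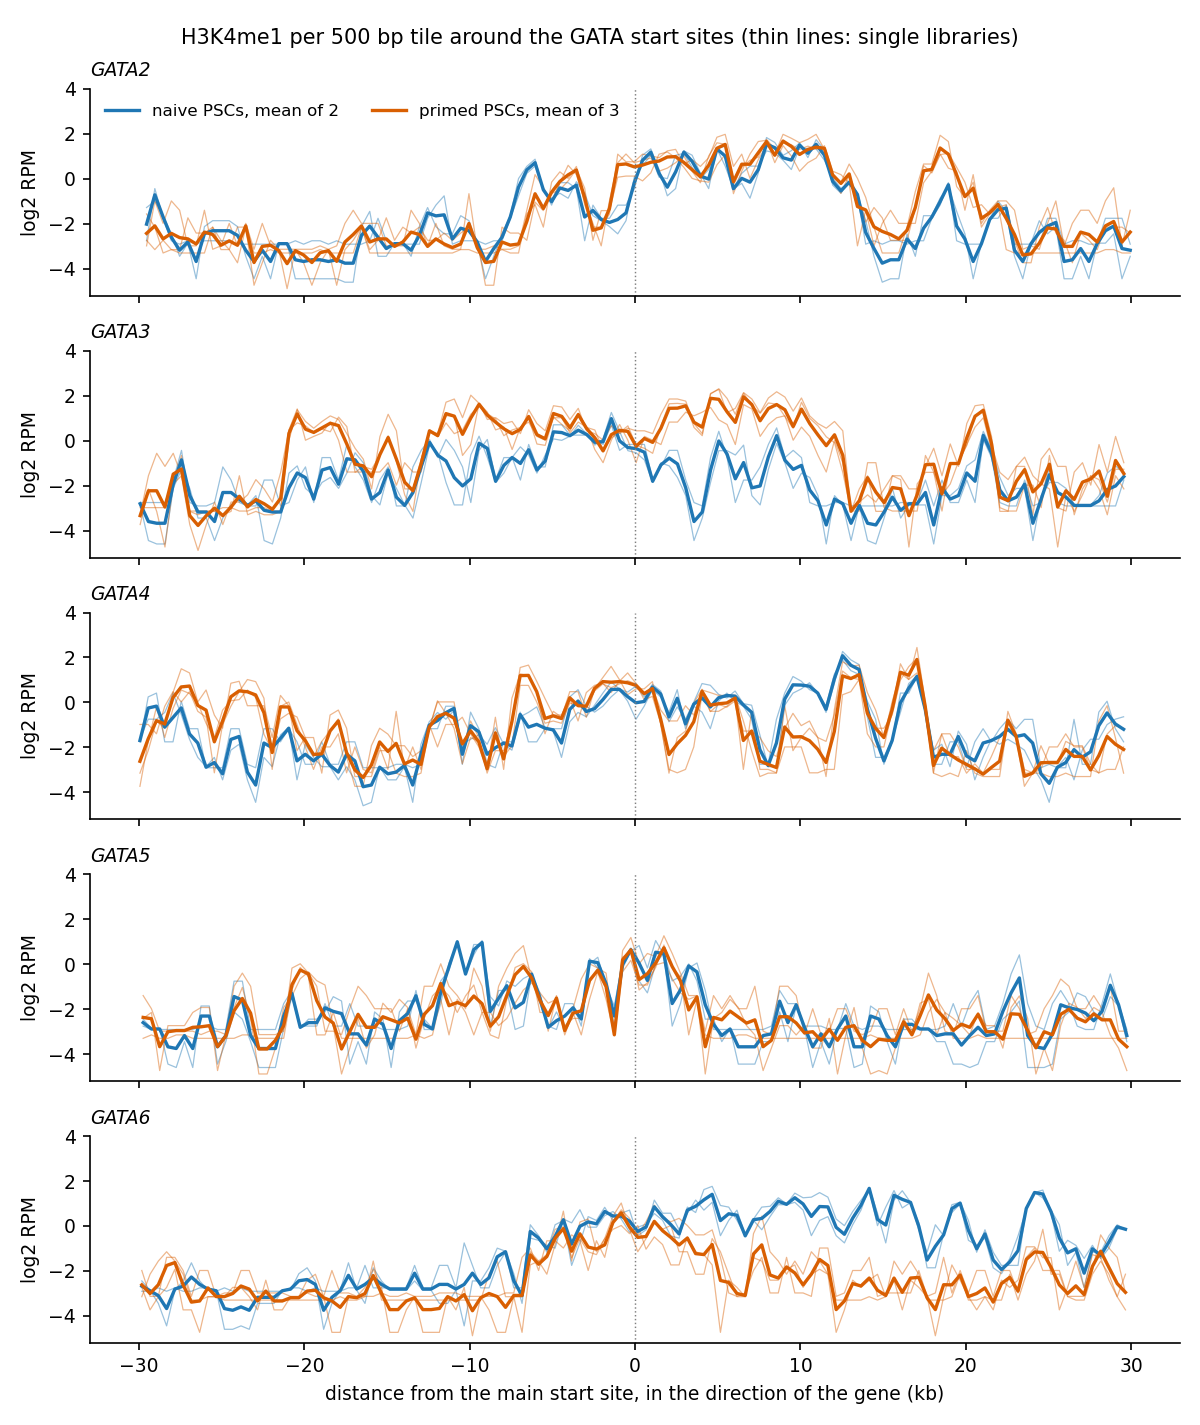
H3K4me1 in log2 RPM per 500 bp tile from 30 kb upstream to 30 kb downstream of the main start site of each GATA gene, drawn in the direction of the gene, with thin lines for single libraries and thick lines for the means of 2 naive and 3 primed libraries. Primed levels run above naive levels on both sides of the *GATA3* start and at the site 18.5 kb past the *GATA2* start, and naive levels run above primed levels through the *GATA6* gene.

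*GATA2*, a regulator of blood stem cells and trophoblast, was in the lists through 1 fragment, chr3:128474028-128489997, which covers the 3′ part of the gene (minus strand) and the starts of other transcripts together with the *GATA2-AS1* promoter. It was joined in naive PSCs to the bait of *DNAJB8-AS1*, 25.6 kb away, with a score of 5.38 and 69 reads, and had no primed interaction. That sub-network consisted of this pair alone.

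H3K4me1 on this *GATA2* fragment was -0.53 and -0.46 log2 RPM in the naive libraries and 0.37, 0.02 and 0.08 in the primed libraries. The groups did not overlap, but the difference of 0.65 ± 0.31 (SE) missed the threshold (limma adjusted p = 0.10). It passed in 2 of 11 alternatives: with libraries centred on their medians (0.92, limma adjusted p = 0.015) and in edgeR on the recovered reads (0.71, adjusted p = 0.0024). Those fits called 2336 and 2517 of 7781 fragments higher in primed PSCs, against 1672 in the main fit. With the highest tile in place of the mean the difference was 0.19 (limma adjusted p = 0.68). The fragment with the main start, chr3:128489998-128493460, had 0.56 and 0.44 in naive and 0.99, 0.67 and 0.51 in primed libraries. In the fit over all *Hin*dIII fragments of the genome its difference was 0.22 ± 0.34 (SE; limma adjusted p = 0.60), and 29.7% of the 42165 fragments tested there were called higher in primed and 28.7% higher in naive PSCs.

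Within the *GATA2* promoter fragments 7 of 33 tested tiles were higher in primed PSCs and 0 higher in naive PSCs, where 26.0% and 26.1% of all tested tiles were called in these directions, so the primed count is no more than the background. Of the 7, 4 adjoining tiles lay 17.45 to 18.95 kb past the main start, beyond the 3′ end of the gene, 2 lay 0.55 and 1.05 kb upstream of it and 1 lay 1.95 kb past it. The printed window is from the strongest of the former, chr3:128474601-128474900 on the plus strand. Its tile measured -0.86 and -1.17 log2 RPM in naive and 1.94, 1.11 and 1.07 in primed libraries, a difference of 2.39 ± 0.45 (SE; limma adjusted p = 6.3e-04). It holds 2 of the GATA words, both on the minus strand.
GATA2 downstream tile: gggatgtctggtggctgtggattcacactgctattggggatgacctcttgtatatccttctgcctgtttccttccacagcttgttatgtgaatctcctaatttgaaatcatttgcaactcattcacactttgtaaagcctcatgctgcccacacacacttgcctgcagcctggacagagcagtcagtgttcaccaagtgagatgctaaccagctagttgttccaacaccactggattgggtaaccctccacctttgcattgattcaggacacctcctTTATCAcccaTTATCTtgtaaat

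*GATA4*, a regulator of endoderm and heart, was in the lists through 2 fragments without a bait, at an upstream start and at a start within the gene, on chromosome 8. The upstream fragment, 11673970 to 11682591, had no naive interaction and 2 primed interactions, both over 10 Mb long. The one described here joined it to the bait of *EBF2*, a regulator of neural and adipose fate, 14.4 Mb away, and rested on 4 combined reads with a score of 6.26. The fragment within the gene, 11750502 to 11757802, had 4 naive and 3 primed interactions, of which 3 were in both lists.

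The shared contacts of *GATA4* joined the bait of *FAM167A* and 2 adjoining baits at *BLK*, a B cell kinase gene. Scores for *FAM167A* at 275 kb were 6.75 in naive and 6.59 in primed PSCs. At the bait with the *BLK* start, 195 kb away, they were 10.03 and 8.74, and at the bait next to it 7.45 and 9.88. The bait of the defensin genes *DEFB135* and *DEFB136*, 218 kb away on the other side, was in the naive list alone, with a score of 9.20 and 16 reads. These baits were hubs, with 14 to 51 interactions each in a list, so *GATA4* was 1 contact among many of theirs.

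H3K4me1 on the upstream *GATA4* fragment was -2.001 and -1.61 log2 RPM in naive and -0.43, -0.60 and -0.84 in primed libraries. It was below the filter, and the fit without a filter gave a difference of 1.18 ± 0.36 (SE; limma adjusted p = 0.0097). In that fit 9.81% of 88413 fragments were called higher in primed PSCs. The fragment within the gene did not separate the groups, with -2.70 and -2.27 in naive and -2.73, -2.06 and -2.71 in primed libraries. At the fragment of the main start, 11693164 to 11706180, the naive libraries measured -0.62 and -0.77 and the primed libraries -0.17, -0.29 and -0.60, below the filter, so that no test was made. Over the whole gene 9 tiles were higher in primed and 11 higher in naive PSCs of 50 tested, both below the shares of all tiles (26.0% and 26.1%).

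The *EBF2* bait fragment was the only partner of any GATA gene that passed the filter, which it did through its primed libraries alone. It measured -0.64 and -0.69 log2 RPM in naive and 1.00, 0.48 and 0.79 in primed libraries, a rise of 1.42 ± 0.31 (SE; limma adjusted p = 0.0045) that was called in all 11 alternatives. Over all tested fragments 21.5% were called higher in primed PSCs. At the *FAM167A*, *BLK* and *DEFB135* fragments the naive and primed ranges overlapped.

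*GATA5*, a heart and gut regulator, was the GATA bait with its contact in naive PSCs. The bait fragment, chr20:62455128-62493085, is 37958 bp long and holds the main start at 62475995 on the minus strand. It had 1 naive interaction, with a baited fragment at 62613650 to 62618999, 142 kb upstream, at a score of 6.11 with 24 reads, and none in primed PSCs. A bait listed in naive cells alone was found for 15.0% of all baits. That partner has no annotated promoter by the rule used here, and the nearest protein-coding start is *SLCO4A1*, 23.5 kb away.

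H3K4me1 averaged over the long *GATA5* fragment was low in both cell types, with -2.23 and -1.88 log2 RPM in naive and -2.49, -1.52 and -2.30 in primed libraries, overlapping ranges below the filter. Its partner differed more, with -1.30 and -0.95 in naive and -3.09, -2.24 and -2.48 in primed libraries (difference of -1.48 ± 0.37 SE, limma adjusted p = 0.0013 without the filter, where 15.2% of fragments were called higher in naive PSCs). All 4 tiles tested in the partner and 3 of 10 tested in the bait fragment were higher in naive PSCs, beside 26.1% of all tiles. The 3 in the bait fragment lay 9.26 to 10.76 kb upstream of the start. The window printed from them, chr20:62486601-62486900 on the plus strand, measured 1.05 and 0.95 in naive and -1.56, -1.40 and -2.15 in primed libraries.
GATA5 upstream tile: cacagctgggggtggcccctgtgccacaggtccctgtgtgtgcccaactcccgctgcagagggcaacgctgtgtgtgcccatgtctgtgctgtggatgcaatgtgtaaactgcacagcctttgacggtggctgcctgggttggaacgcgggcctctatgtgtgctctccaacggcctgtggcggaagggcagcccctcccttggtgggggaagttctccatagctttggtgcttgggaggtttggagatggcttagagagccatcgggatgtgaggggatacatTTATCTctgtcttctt

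Set side by side, the trophoblast and endoderm genes did not divide by cell type in their contacts. *GATA2* and *GATA3* had 1 naive and 10 primed interactions, and *GATA4* and *GATA6* had 5 naive and 13 primed interactions. The gene that was absent from the naive list was *GATA3*, and the highest score of the family was that of *GATA6*. All interactions over 1 Mb were primed, 8 from *GATA3* and 2 from *GATA4*. With 2 genes a side, and a bait shown in the lists for only 1 of them on each side, no test of the division was made. Whether *GATA2* and *GATA4* were baited in the capture is not known from the lists.

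On the promoter fragments the tiles higher in primed PSCs were 7 of 33 tested for *GATA2*, 23 of 39 for *GATA3*, 8 of 22 for *GATA4* and 0 of 15 for *GATA6*, beside 26.0% of all tiles. Those higher in naive PSCs were 0 for *GATA2*, *GATA3* and *GATA4* and 4 of 15 for *GATA6*, beside 26.1% of all tiles. The counts of *GATA2* in primed and of *GATA6* in naive PSCs are thus near the background and show nothing particular to these fragments. In limma at an unadjusted p under 0.05, each of these counts of 0 was also 0. Of the endoderm pair, the called promoter tiles of *GATA6* were all higher in naive cells, at a share near the background. Those of *GATA4* were all higher in primed cells and lay upstream of its main start. Over the whole *GATA4* gene 9 tiles were higher in primed and 11 higher in naive PSCs of 50 tested. Both shares were below those of all tiles. A tile entered the test with a value above 0 in any 2 libraries, which either cell type alone could meet. These directions are therefore a description, and a contrast between the genes was not tested.

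The Hi-C maps gave a view of the same loci without capture, from the kind of library that the capture was performed on, so it is not an independent sample. Their files count read pairs between 100 kb bins, with 44820314 read pairs within chromosomes in primed PSCs and 24679549 in naive PSCs, where low counts within chromosomes were left out. The primed counts were therefore compared with the mean of all bin pairs of the chromosome at the same distance, and naive counts are given as they stand. The 23 primed interactions fell into 11 bin pairs, of which 9 were above that mean, with a median ratio of 2.32.

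At *GATA3* all 5 bin pairs were above the mean. The pair with 4 of the 6 fragments around 1.2 Mb held 101 read pairs in primed PSCs where 19.5 was the mean, a ratio of 5.17, and 35 in naive PSCs. The bin pair with *BMI1* held 11 against a mean of 0.553, more than 99.9% of the 1142 pairs at that distance, and that near *PTF1A* held 3 against 0.556. The nearest run had a ratio of 1.35, with 173 read pairs in primed and 102 in naive PSCs. For *GATA6* the near and far runs had 375 and 203 read pairs in primed PSCs, ratios of 1.66 and 1.72, and 249 and 150 in naive PSCs. With 200 kb bins the near run turned to below the mean, with a ratio of 0.853, and the far run had 1.65. Read pairs were not scaled to the totals of the libraries, so a higher primed count does not by itself show more contact.

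For *GATA4* the 2 distant contacts were above the mean and the local ones below it. The bin pair with *EBF2* held 8 read pairs against a mean of 0.884. The bin pairs of *FAM167A* and *BLK* had ratios of 0.547 and 0.545. That of the naive *GATA5* contact had 22 read pairs in primed PSCs, a ratio of 0.135, and 43 in naive PSCs. The naive count was also the higher for *GATA4* with *FAM167A* (105 against 82) and with *DEFB135* (84 against 81). Counts of 3 to 11 carry wide counting error, and there is 1 library per cell type.

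**Figure D4:**
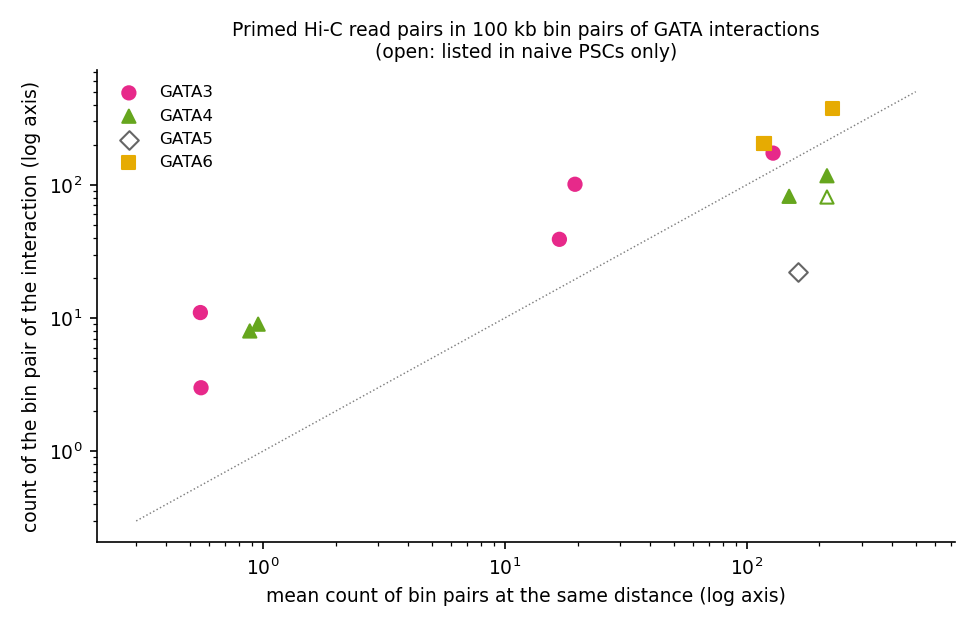
Primed Hi-C read pairs in the 100 kb bin pair of each GATA interaction against the mean of all bin pairs of the same chromosome at the same distance (both axes log), with the dotted line at equality and open symbols for interactions listed in naive PSCs alone. All *GATA3* and *GATA6* points and the distant *GATA4* points lie above the line, and the local *GATA4* and the *GATA5* points lie below it.

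Between chromosomes, windows of 1.1 Mb around the 5 start sites shared few read pairs. The 10 pairs of genes had 1 to 4 read pairs each in naive and 0 to 10 in primed PSCs. Relative to the mean for the chromosome pair, the median ratio was 0.726 in naive and 1.70 in primed PSCs. *GATA2* with *GATA4* and *GATA3* with *GATA6* had 10 read pairs each in primed cells (exact Poisson interval of 4.80 to 18.4, counting error only), where the means were 2.59 and 3.49. With the totals of the bins used as the expected value, chosen after the data were seen, the medians were 1.24 in naive and 1.89 in primed PSCs, so the naive median moved from below to above 1. *GATA3* with *GATA6* came to 1.79 and *GATA2* with *GATA4* to 7.53.

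By shared partners the baits most like *GATA3* shared few of its contacts. A bait at ENSG00000230121 shared 4 of 10, a part of 0.19 of the union, that of *ATP5F1C* and *KIN* shared 2 (0.18) and that of *ITIH5* shared 2 (0.15). For *GATA4* they were the baits of the cathepsin gene *CTSB* (4 shared, 0.44), of ENSG00000246477 (3 shared, 0.33) and of *NEIL2* (4 shared, 0.31). The single *GATA5* partner was also the single partner of the *CABLES2* bait, and was among the partners of the *MRGBP* (0.25) and *RBBP8NL* (0.20) baits.

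As connected sub-networks the GATA loci differed in size. *GATA6* sat in 12 fragments with 2 baits, both in the gene, and 2 naive and 18 primed interactions, so that no bait of another protein-coding gene was joined to it. *GATA3* belonged to 189 fragments on chromosome 10 with 114 naive and 203 primed interactions, reaching from 7531056 to 24510357. *GATA4* belonged to 555 fragments on 2 chromosomes with 538 naive and 631 primed interactions, a group that also held the bait of the endoderm gene *SOX17*. *GATA5* sat among 15 fragments with 18 naive and 1 primed interactions, including the baits of *CABLES2*, *NTSR1* and *SLCO4A1*.

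Of 15 cofactor and partner genes of the GATA factors, 13 had a bait in the lists, and 11 of these had more interactions in primed and 1 more in naive PSCs. The largest differences were at *HAND2* (0 naive, 34 primed), *TAL1* (4 and 34), *GATAD1* (18 and 40) and *GATAD2B* (15 and 32). *HAND2* is a heart and limb factor, *TAL1* a blood factor that binds with GATA proteins, and *GATAD1* and *GATAD2B* encode proteins with a GATA-type zinc finger. The FOG gene *ZFPM1* was the 1 with more naive interactions, 1 against 0. H3K4me1 passed the filter at 1 cofactor bait, that of the heart gene *TBX5*. It was called higher in primed PSCs, beside 21.5% of all tested fragments. The *TBX5* start fragment averaged -1.74 log2 RPM in naive and 0.15 in primed libraries, so the filter favoured the primed direction.

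Other trophoblast genes were divided, with 9 of 15 baited genes having more primed and 4 more naive interactions. *NR2F2* (1 naive, 22 primed), *HAND1* (5 and 24), *TFAP2A* (3 and 20) and *MSX2* (8 and 23) differed most, all encoding transcription factors. Of 7 trophoblast genes tested for H3K4me1 at the bait, *TEAD4* and *PPARG* were higher in naive PSCs and 0 were higher in primed PSCs, beside 32.9% and 21.5% of all tested fragments, so the naive count is near the background. The start fragments of *TEAD4* and *PPARG* averaged 0.42 and 0.09 log2 RPM in naive and -0.64 and -2.14 in primed libraries. The filter therefore favoured the naive direction for both. *TEAD4* starts the trophoblast programme and *PPARG* acts in placental cells.

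Of 15 baited endoderm genes 10 had more primed and 5 more naive interactions. *FOXA1* (7 naive, 34 primed), *FOXA2* (10 and 28) and *SOX17* (4 and 18), all endoderm transcription factors, had the largest gains in number, and *EOMES* (41 and 31) went the other way. H3K4me1 was tested at 4 endoderm baits. That of *CER1*, a secreted inhibitor made by the anterior endoderm, was higher in primed PSCs and 0 were higher in naive PSCs. Over all tested fragments these shares were 21.5% and 32.9%, so the primed count is near the background. The start fragment of *CER1* averaged -3.34 log2 RPM in naive and 0.31 in primed libraries, and passed the filter through the primed libraries alone. Primed interactions over 1 Mb were listed for 7 of the endoderm, 4 of the trophoblast and 5 of the cofactor genes with a bait (15, 15 and 13), beside 9.73% of all baits. *ZFPM1*, *TBX5*, *TEAD4*, *PPARG* and *CER1* are named because they make up small counts, after their values were seen. These lists are short and were chosen by name, so their counts are a description beside the 42.7% of all baits with more primed interactions.

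**Figure D5:**
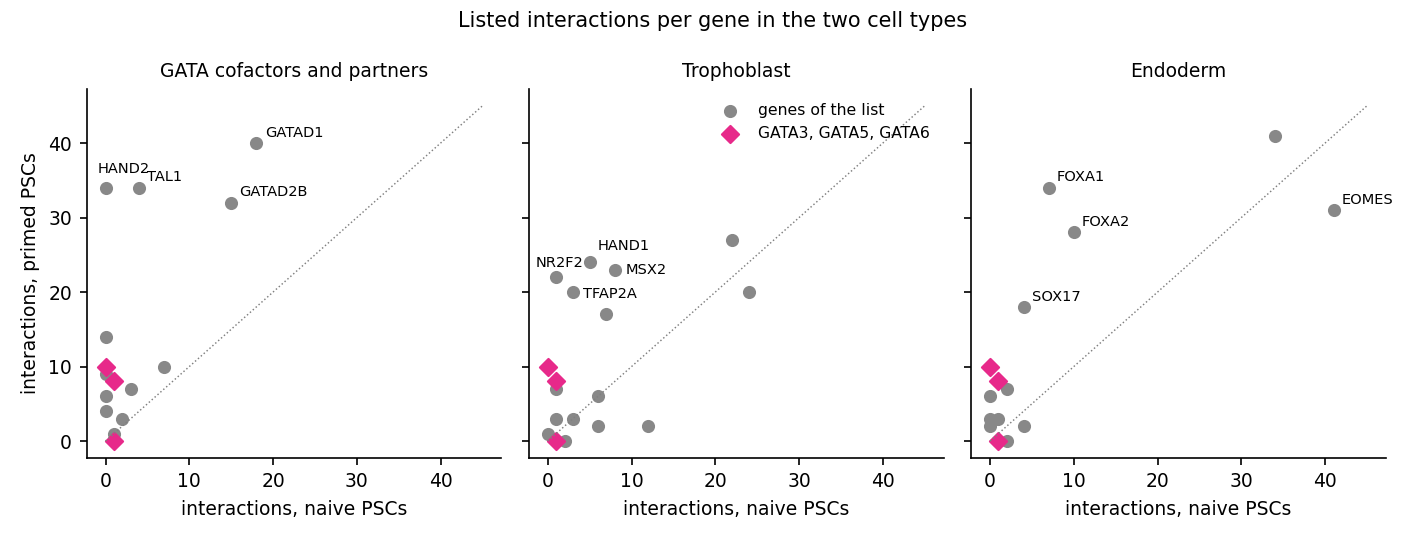
Number of listed interactions per gene in naive (x axis) and primed PSCs (y axis) for the baited cofactor, trophoblast and endoderm genes, with the 4 genes of largest difference named, *GATA3*, *GATA5* and *GATA6* as diamonds and the dotted line at equal numbers. *GATA3* (0 and 10) and *GATA6* (1 and 8) lie above the line, below genes such as *HAND2*, *NR2F2* and *FOXA1*.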

How the data were processed

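PCHi-C, Hi-C and H3K4me1 CUT&RUN data of naive and primed PSCs (GRCh38) were used, leaving the NANOG, SOX2 and input samples aside. The authors processed PCHi-C reads with HiCUP, combined replicates with CHiCAGO and deposited interactions with a read number and a CHiCAGO score of at least 5. For Hi-C, the authors deposited read pair counts per pair of 100 kb bins. For H3K4me1, the authors deposited log2 RPM per 500 bp tile from SeqMonk, after Trim Galore 0.5.0 and Bowtie2 2.3.2 according to the submitters' processing notes. Every value that was not empty gave whole reads within a tolerance of 0.02 (100% of such tiles).

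The members and the gene lists were chosen with earlier results of these data known. As the lists hold strands and no gene names, promoters were matched to *Hin*dIII fragments of the genome with GENCODE 44, and a fragment counted as baited only where the lists show it as such. Fragment means of tiles were tested with limma 3.58.1 in R 4.3.3 over all list fragments with a mean above 0 in at least 2 libraries (7781 of 88413), and tiles likewise (465122), with Benjamini-Hochberg adjustment and a threshold of 0.05. No fold or p is given for interactions. Named were the family, genes on baited partners, the partners with the highest scores and the longest interaction, the partners with the largest H3K4me1 differences past the threshold, the 4 genes of each list with the largest difference in interactions, and the 3 baits sharing the largest part of their partners with a member. In data simulated for the 7781 fragments with 200 of them changed, 14% of log2 differences of 1 and 88% of those of 2 were recovered. Of unchanged fragments 0.066% were called. The fit of the real data called far more fragments, 1672 higher in primed and 2558 higher in naive PSCs. The simulated recovery therefore does not measure that of the real fit. Alternatives were other filters, centring, the highest tile, a replicate block, left-out libraries, all *Hin*dIII fragments, edgeR 4.0.16 on recovered reads, other score and read minimums, and other Hi-C bins and expected values. Tiles over gene spans, and the expected contacts between chromosomes from bin totals, were added after the data were seen. A partner gene and a sequence window that the naming rule would include are not reported here.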

Additional observations from a re-analysis of the deposited data

How the results depend on the processing

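Of 152 alternative values, 125 kept their direction and side of the threshold or stayed within the allowed range. A change of direction was looked for only in the differences at single fragments, and 0 of those changed sign. Counts and Hi-C ratios were judged by size alone, and the naive ratio between GATA loci moved across 1, as given below. Leaving out 1 H3K4me1 library gave 0 to 1 GATA bait fragments called higher in primed PSCs (1 with all libraries) and 0 to 1 higher in naive PSCs (0 with all libraries). These are *GATA3* without naive replicate 1 (1.38, adjusted p = 0.055 in limma) and *GATA6* without primed replicate 2 (-1.003, adjusted p = 0.012). With 1 naive library left, it is assumed to vary like the primed libraries. The *GATA2* fragment passed in 2 of 11 alternatives, after centring (0.92) and in edgeR (0.71). Of the 26 partner fragments, 3 were higher in primed and 1 in naive PSCs without the filter, beside 9.81% and 15.2% of all list fragments. With the filter 1 partner was tested, and the counts were 1 and 0. Over all tested tiles 26.0% were called higher in primed and 26.1% higher in naive PSCs. Of tiles in GATA fragments of the lists and in their partners, 51 were higher in primed and 23 in naive PSCs. With a minimum log2 RPM of 1 these were 23 and 5, with a library left out 35 to 56 and 10 to 23 (10 without naive replicate 1 and 12 without naive replicate 2), and over gene spans, chosen after seeing the data, 36 were higher in naive PSCs. Over the same gene spans 41 tiles were higher in primed PSCs. The replicate numbers did not pair the libraries (correlations of deviations of 0.088 and 0.051). A replicate block gave 42 and 20 tiles, the same 1 and 0 bait fragment calls, and 1.52 at *GATA3* (limma adjusted p = 0.018).

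The baited GATA fragments had 2 naive and 18 primed interactions. At a score of at least 7 these were 1 and 8, and at 10 they were 0 and 3. At a score of at least 7 the trophoblast genes had 0 naive and 4 primed interactions and the endoderm genes 4 naive and 7 primed. At 10 the trophoblast genes had 0 and 0, and the endoderm genes 1 and 3. With at least 10 reads the trophoblast genes had 5 primed interactions. Primed interactions of the baits shared with the naive list were 1, or 5 within 10 kb. The median Hi-C ratio between GATA loci in naive PSCs was 0.726, and 1.24 with bin totals as the expected value, and the *GATA6* near run had a ratio of 0.853 with 200 kb bins. The cause of the shifts with score, read number or matching distance is the stricter or looser limit itself, and that of the others was not tested. The contacts over 10 Mb rest on 4 combined reads each, and whether depth limits the distant contacts was not tested.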
